A study of Monodelphis domestica with 25 samples.

Results

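Between 12 and 48 h of culture, opossum blood lost most of the counts of a pair of transcripts that had led the 12 h libraries, and 2864 transcripts in all changed level. The comparison set the 3 untreated time course libraries at 48 h against the 3 at 12 h, 6 of the 25 libraries of the series. They were chosen by their titles and paired by the identifiers A0036, A0039 and A3538, each of which had 1 library at each time. The 3 libraries at 24 h of the same identifiers were read as the intermediate point, and they entered the fit with the 0 and 72 h libraries. The donor species was Monodelphis domestica, a small opossum kept as a laboratory marsupial, and the strain was LSD. It was whole blood, diluted in RPMI-1640 culture medium with glutamine, penicillin and streptomycin and kept in wells of a culture plate in a CO2 incubator. None of the 9 libraries received a compound, and the labels call all of them untreated. The labels do not give the age or sex of the donors, and they do not say that an identifier is 1 animal, so the p-values measure the spread between these libraries. The blood of this pilot was diluted at more than 1 strength, and the labels tie no library to a strength. Dilution therefore cannot be told apart from identifier or from time.

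Whole blood holds red cells, platelets and several kinds of white cells. Immature red cells carry leftover messenger RNA that decays without being replaced, because mature mammalian red cells have no nucleus. Of the white cells, granulocytes are short-lived outside the body, whereas lymphocytes and monocytes can survive for days, and monocytes that attach to a plate can become macrophage-like. Blood kept in medium is therefore a mixture of cells with different life spans and of cells adapting to the dish.

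The table named 22049 of its 22063 features by Ensembl transcript identifier, and no table used here pairs those with genes (0 matches in the RefSeq gene table of assembly mMonDom1.pri). Lists of marker genes or pathways therefore could not be counted. Total counts were 138244744 to 336472834 at 12 h, 100504950 to 195670957 at 24 h and 71188116 to 102173649 at 48 h. Depth thus fell with time in each identifier. Levels are given as CPM, counts relative to the TMM-scaled library total. TMM scaling sets libraries to a common level on transcripts of moderate change. A floor of 3 counts was worth 0.0169 to 0.0194 CPM in the 12 h libraries, against 0.0223 to 0.0291 CPM in those of 48 h.

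The first question was how the counts of a library were spread over its transcripts. ENSMODT00000014407, the transcript with the most counts at 12 h, held 29.0% of the counts of A0036, 6.75% of A0039 and 38.0% of A3538 at that time. After 24 h it held 18.3%, 1.85% and 25.8%, and after 48 h 0.542%, 0.0729% and 3.95%. Its share fell at each step in each identifier, and the highest 48 h library lay below the lowest 12 h library. On the CPM scale the level was 93.1-fold lower at 48 h than at 12 h in A0036, 105-fold lower in A0039 and 29.0-fold lower in A3538. The fitted log2 change was -5.96 (SE 0.786, adjusted p = 0.000365, edgeR's quasi-likelihood F test, Benjamini-Hochberg adjusted), and the call was lost in a fit without the identifier as a replicate block (-5.26, adjusted p = 0.0652). It was -5.14 with scaling by the library total and -6.67 without A3538, both called. In bulk blood, fewer cells of a type and less RNA per cell cannot be told apart.

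A companion went down beside it. The transcript with the next most counts at 12 h, which also passed the test, held 15.3%, 3.99% and 21.5% of the counts at 12 h in the same order of identifiers, and 0.249%, 0.0208% and 1.99% at 48 h. The ratio of the leading transcript to this one was 1.78 ± 0.107 (SD, n = 3) in the 12 h libraries, 2.01 ± 0.111 after 24 h and 2.56 ± 0.825 after 48 h. The 48 h ratio was 2.18 and 1.99 in A0036 and A3538 and 3.50 in A0039. The pair therefore declined almost in step in A0036 and A3538, and less so in A0039, where both had become rare.

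As the pair left, the counts spread over more transcripts. The 10 transcripts with the most counts in a library together held 51.5%, 17.1% and 67.0% at 12 h (A0036, A0039, A3538) and 16.3%, 13.7% and 17.6% at 48 h. The libraries differed widely at 12 h and lay close together at 48 h. It took 7, 377 and 2 transcripts to reach 50% of the counts at 12 h, and 487, 566 and 537 at 48 h. With each library thinned to 71188116 counts, 15878, 16236 and 15618 features had at least 1 count at 12 h, and 16675, 16407 and 16843 at 48 h. Thinning made the totals equal, but the leading pair took up more of them at 12 h and left fewer counts for other features. The gain ran from 171 in A0039, where the pair held least at 12 h, to 1225 in A3538, where it held most. How much of the gain came from the share of the pair was not tested. The share of the leading 10 fell by 29.3 percentage points on average and the number detected rose by 731 ± 530 (SD, n = 3 pairs), each in the same direction in 3 of 3 identifiers. Without A3538 these differences were -19.3 points and 484, without A0039 they were -42.3 and 1011, and without thinning the gain in features was 175.3. The exact two-sided sign-flip permutation test gave p = 0.25 for both, the smallest that 3 pairs allow, and 0.25 after adjustment over 3 such tests.

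**Figure D1:**
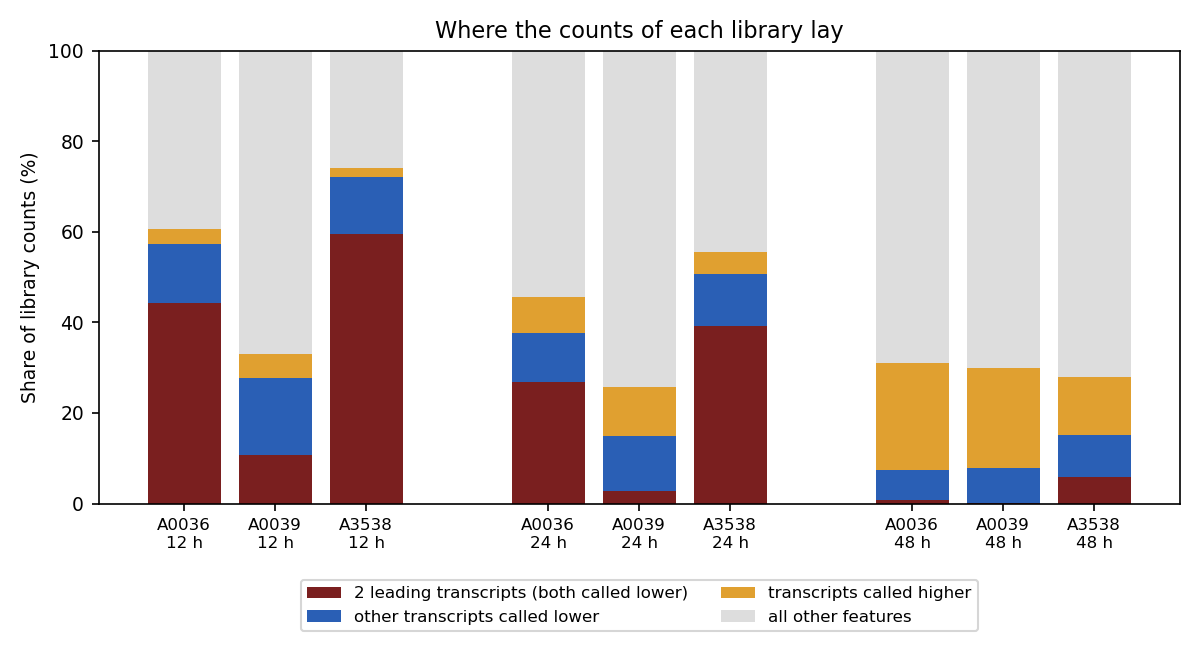
Share of the counts (%, vertical axis) of each of the 9 libraries (horizontal axis, by identifier and hour) held by the 2 leading transcripts, by the other transcripts called lower, by those called higher and by all other features. The leading pair fills much of A0036 and A3538 at 12 h and little of any library at 48 h, when the transcripts called higher hold 12.8% to 23.6%.

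Across all tested transcripts, 2864 of 15524 differed between 48 and 12 h (18.4%) at an adjusted p under 0.05. Of these 1572 were higher at 48 h (10.1% of those tested) and 1292 were lower (8.32%). Called rises had a median log2 change of 1.73 and called falls of -1.51, against -0.01 over all tested transcripts, whose quartiles were -0.50 and 0.46. At least 2-fold changes made up 1169 of the rises and 979 of the falls, at least 4-fold changes 686 and 464, and at least 16-fold changes 282 and 145. Changes of 4-fold and more were thus more numerous among the rises. The count was 4741 in a fit of the 12, 24 and 48 h libraries alone (48.2% of calls higher in place of 54.9%), 1503 and 1382 when A0036 or A0039 lacked its 12 h library, 1313 and 1497 when either lacked its 48 h library, and 1561 without any library of A3538.

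The split between rises and falls rests on the scaling. TMM factors were 0.476 to 1.28 at 12 h and 1.32 to 1.45 at 48 h, lowest where the leading pair held most. With scaling by the library total alone, the median log2 change of all transcripts moved from -0.01 to 0.83. That scaling called 4023 transcripts higher and 325 lower, and 1894 of the 2864 calls given here were among them. Most of the 1292 falls were thus no longer called. No transcript was called in the opposite direction, but that takes a call in both fits and says nothing of the calls that were lost. Rises and falls are therefore relative to the median transcript, and these data do not give RNA per volume of blood.

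Nearly all calls were shared by the identifiers. All 3 identifiers moved the same way for 1554 of the 1572 rises and 1290 of the 1292 falls, and for 58.8% of all tested transcripts. The 48 and 12 h libraries did not overlap for 1510 of the rises and 1208 of the falls. Such separation is common in these data: it held for 43% of all tested transcripts, 3965 of which were not called. Agreement in direction was also part of what the paired test measures, so it describes the calls and adds no support to them.

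Changes were found at all levels of expression, but they were larger among rare transcripts. With the tested transcripts ranked by mean level and cut into 4 bins of 3881, the share called was 16.2%, 20.8%, 16.8% and 20% from the lowest to the highest bin. The median called rise was 4.33 on the log2 scale in the lowest bin (0.0158 to 0.743 CPM) and 1.14 in the highest (35.1 CPM and above), and the median called falls were -3.12 and -1.03. A rare transcript needs a larger change to pass, which the medians include. Falls prevailed among the transcripts with the most counts. Of 100 transcripts that averaged at least 1000 CPM at 12 or 48 h, 44 were called lower and 15 higher, and of 1628 at 100 CPM or more, 245 and 264.

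**Figure D2:**
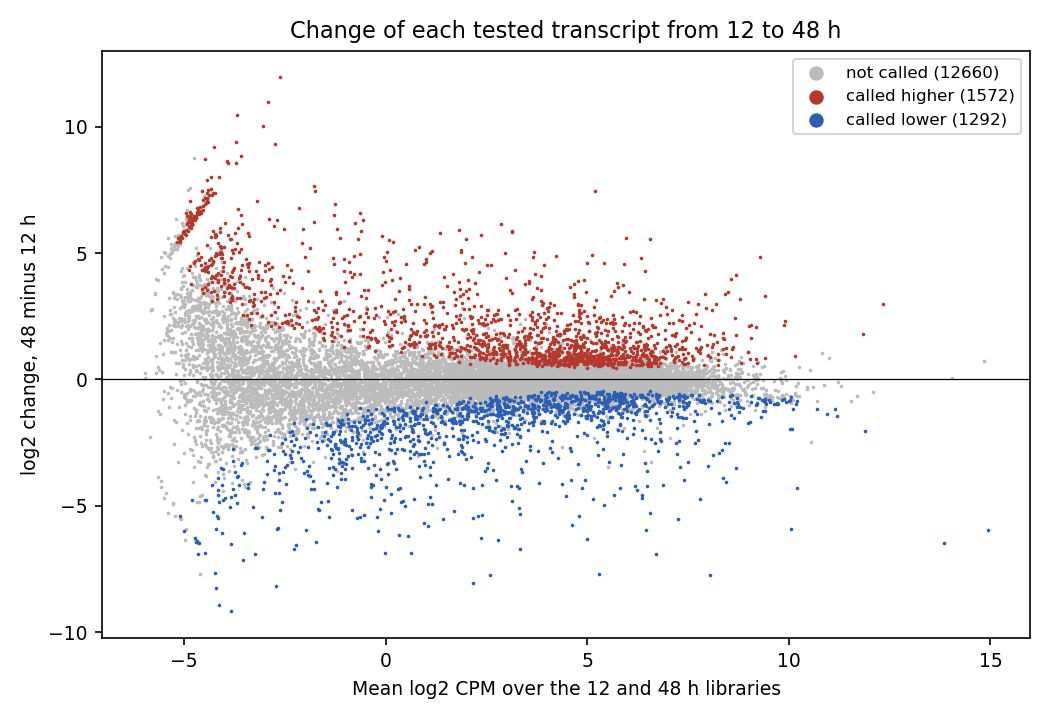
The log2 change of each tested transcript from 12 to 48 h (vertical axis) against its mean log2 CPM over the 6 libraries (horizontal axis), with called transcripts in colour. Called rises (1572) and falls (1292) occur over the whole range, and the leading pair lies at the far lower right.

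Some transcripts went from no count to a measurable level. Of the 1572 rises, 91 were at 0 counts throughout the 12 h libraries, and 60 of these reached at least 3 counts in each library of 48 h. Their mean 48 h levels were low, from 0.0482 to 4.77 CPM with a median of 0.0957 CPM, and 3 reached 1 CPM. Set against the mean 12 h level of 3 counts per library, the highest of them was at least 259.8-fold higher. At 24 h, 55 of the 60 already had at least 1 count. In the reverse direction, 12 called falls were at 0 counts throughout the 48 h libraries, and 9 of these began with at least 3 counts in each library of 12 h. Of all tested transcripts, 152 were at 0 throughout the 12 h libraries and 31 throughout those of 48 h, so fewer could be called in the reverse direction. They passed the filter on low counts through libraries of other times.

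The largest rise among transcripts that reached 5 CPM was that of ENSMODT00000004369. Its level was 2.73, 0.644 and 8.58 CPM at 12 h in A0036, A0039 and A3538, 25.6, 61.4 and 41.3 CPM at 24 h, and 558, 1048 and 264 CPM at 48 h. A0039 was the lowest of the 3 at 12 h and the highest at 48 h, and A3538 the reverse, so the order of the identifiers turned over. The rise was 204-fold in A0036, 1627-fold in A0039 and 30.8-fold in A3538. The fitted log2 change was 7.44 (SE 1.06, adjusted p = 0.000611, edgeR's quasi-likelihood F test). It was 6.66 when A0039 lacked its 12 h library, 8.33 or 8.15 when A3538 lacked that of 12 or 48 h, 8.71 without A3538 and 8.45 with scaling by the library total, and the call stood in each case.

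ENSMODT00000029041 had the highest 48 h level of the transcripts that rose. Its 12 h levels were 1719, 2798 and 1336 CPM (A0036, A0039, A3538), its 24 h levels 6115, 7736 and 2973 CPM, and its 48 h levels 21491, 21764 and 6180 CPM. The 2 times did not overlap, and the 48 h level of A3538 stood near the 24 h level of A0036. The log2 change was 2.97 (SE 0.383, adjusted p = 0.000332 in edgeR's test), and the call was lost in DESeq2 (3.00, adjusted p = 0.079). It was 3.80 with scaling by the library total. Its 24 h level differed from the midpoint of 12 and 48 h by -0.01 on the log2 scale (SE 0.307).

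The largest fall from at least 5 CPM was that of ENSMODT00000024329. Its 12 h levels were 153, 73.1 and 14.7 CPM in A0036, A0039 and A3538, and its 24 h levels 6.16, 1.10 and 5.74 CPM. By 48 h they were 0.513, 0.0969 and 0.784 CPM, from 69, 10 and 100 counts. A3538 began lowest and ended highest. The level was 297-fold and 754-fold lower at 48 h in A0036 and A0039, and 18.7-fold lower in A3538. The log2 change was -8.05 (SE 1.15, adjusted p = 0.000636, edgeR's quasi-likelihood F test). It was -6.80 or -8.96 when A0039 or A3538 lacked its 12 h library, -9.10 without A3538 altogether, -7.20 in a fit of the 12 and 48 h libraries alone and -7.41 without the replicate block, and the call stood each time.

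**Figure D3:**
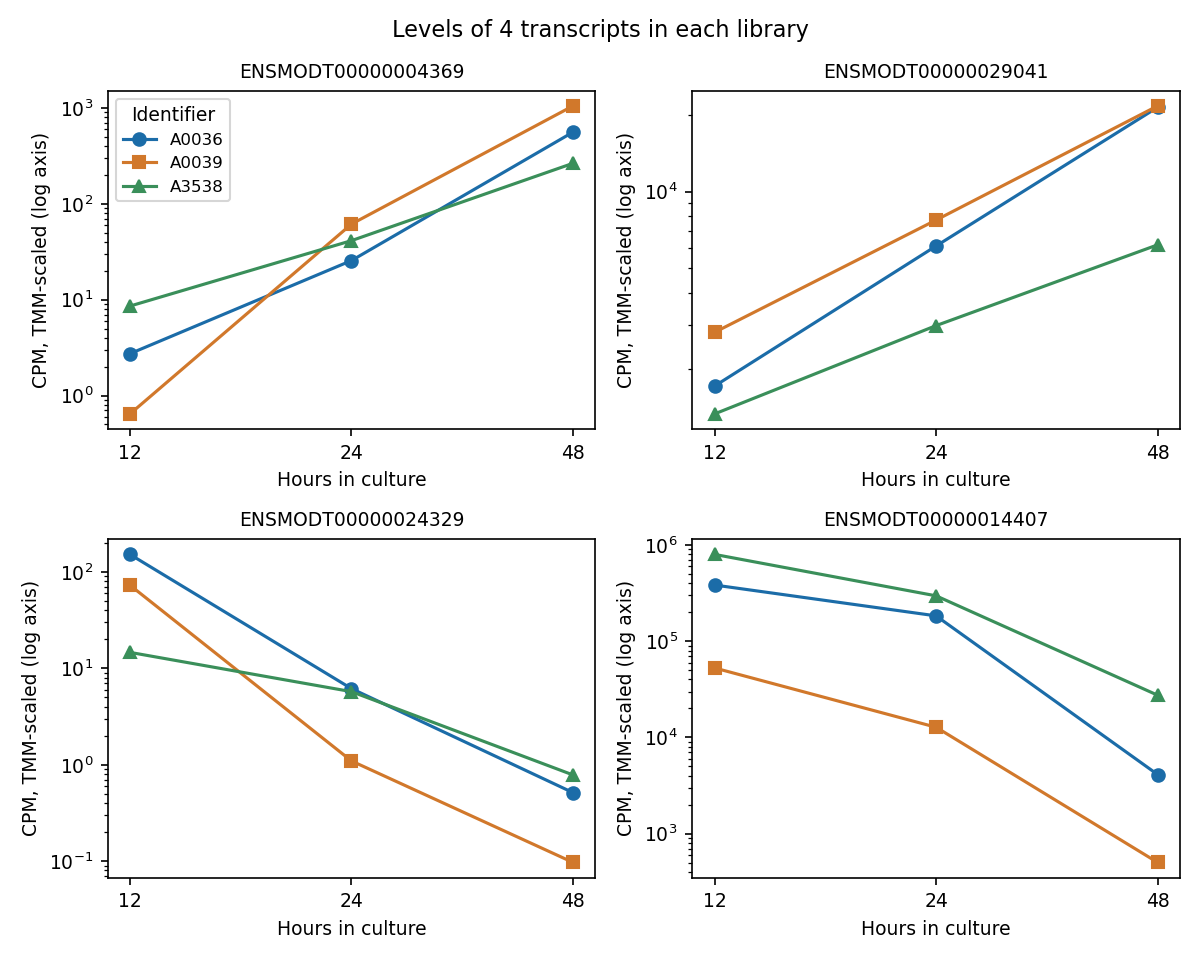
CPM (vertical axis, log scale) of the 2 rising and 2 falling transcripts named in the text at 12, 24 and 48 h (horizontal axis), with a line per identifier. The 12 and 48 h values do not overlap in any panel, and A3538 shows the smallest change from 12 to 48 h in all 4.

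These 4 were the first of longer lists. The rule behind them (called, same direction in all identifiers, no overlap, at least 5 CPM in the higher group) was met by 1040 rises and 844 falls. The 20 largest rises among them had log2 changes of 5.43 to 7.44 and mean levels of 0.0464 to 14.7 CPM at 12 h, 0.239 to 86.5 CPM at 24 h and 5.92 to 778 CPM at 48 h. Their median change was 6.82 in A0036, 6.97 in A0039 and 3.75 in A3538 on the log2 scale. The 20 largest falls had log2 changes of -8.05 to -5.77, with medians of -6.89, -6.51 and -6.11 in the same order. By these medians, A3538 stood further from the other identifiers in the rises than in the falls.

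The smaller response of A3538 was seen across the calls. Called rises had a median log2 change of 1.89 in A0036, 1.78 in A0039 and 1.13 in A3538, and called falls of -1.60, -1.63 and -1.14. A3538 had the smallest rise of the 3 for 1113 of the 1572 rises (70.8%) and the smallest fall for 723 of the 1292 falls (56.0%). Over all tested transcripts it had the lowest change for 33.1% and the highest for 35.1%. Changes of at least 2-fold, called or not, were seen in 31.8% of tested transcripts in A0036, 32.4% in A0039 and 22% in A3538. With 1 library per identifier and time, this difference between identifiers has no replicate and was not tested.

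The 48 h library of A3538 resembled the 24 h libraries of the other identifiers. Over 15524 transcripts its rank correlation was 0.982 with the 24 h library of A0036 and 0.982 with that of A0039. It was 0.974 and 0.978 with their 48 h libraries, and 0.98 with the 24 h library of A3538 itself. The 48 h libraries of A0036 and A0039 correlated at 0.983 with each other, and at 0.947 and 0.950 with the 24 h library of A3538. Of the 1572 called rises, the 48 h level of A3538 was above the 48 h mean of the other identifiers for 214, between their 24 and 48 h means for 1090 and below their 24 h mean for 268. It was above that 48 h mean for 13.6% of called rises and 53.0% of all tested transcripts, whereas A0036 and A0039, each set against the other identifiers in this way, were above for 79.7% and 66.4% of called rises. The transcripts in these correlations share libraries and depth and are no replicates, so the values are a description. A3538 also had the highest share of the leading transcript at each time. At 12 h that share was 29.0% in A0036, 6.75% in A0039 and 38.0% in A3538, and the median called rises were 1.89, 1.78 and 1.13. The part of this share in the smaller changes of A3538 was not tested.

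**Figure D4:**
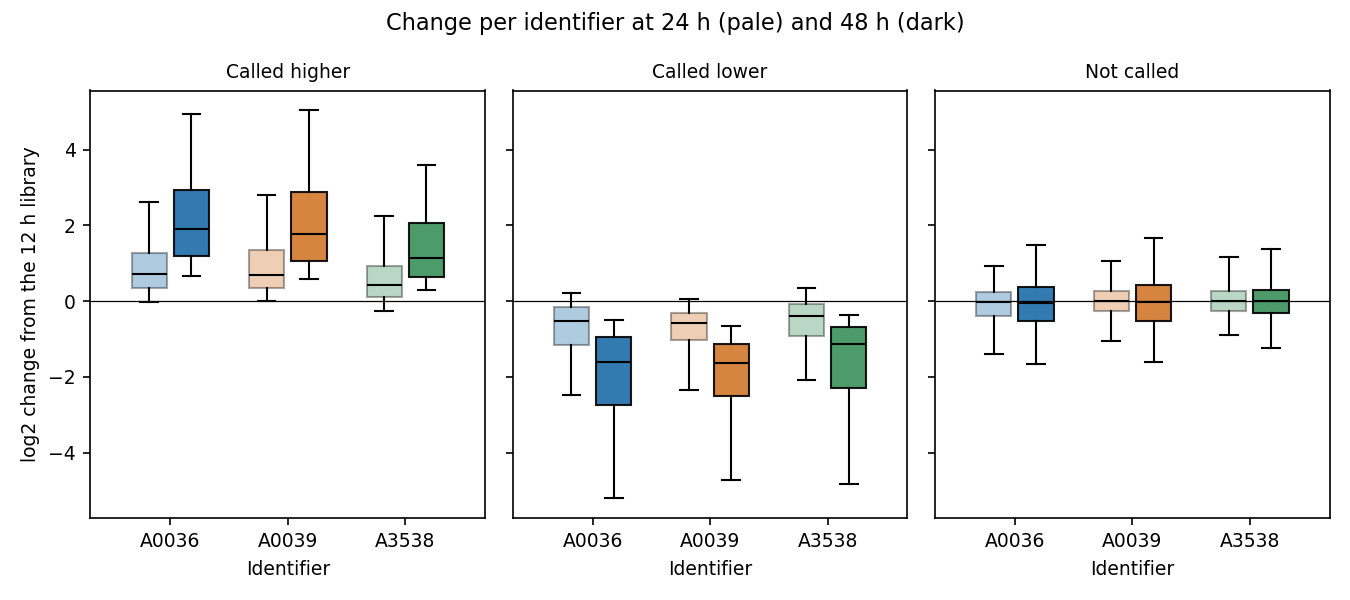
The log2 change from the 12 h library of the same identifier (vertical axis) at 24 h (pale) and 48 h (dark) for transcripts called higher, called lower and not called; boxes show the median and quartiles, whiskers the 5th and 95th percentiles. Medians at 48 h are smaller in A3538 (1.13 and -1.14) than in A0036 (1.89 and -1.60) and A0039 (1.78 and -1.63).

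The 24 h libraries showed how far the changes had gone midway. From 12 to 24 h, 127 of 15524 transcripts were called (0.818%), 86 higher (0.554%) and 41 lower (0.264%). From 24 to 48 h, 459 were called (2.96%), 234 higher (1.51%) and 225 lower (1.45%). Both steps share the 24 h libraries, each is shorter than the whole, and the step from 24 to 48 h is the longer in hours. Of the 1169 rises of at least 2-fold, 1128 had a mean 24 h level between those of 12 and 48 h, as did 919 of the 979 falls (96.5% and 93.9%, against 61.8% of all tested transcripts).

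Rises had covered more of their path by 24 h than falls. On the log2 scale, the median share of the whole change reached at 24 h was 44.3% for rises (quartiles 29.1% and 56.6%) and 34.3% for falls (21.2% and 48.8%). More than 50% was reached by 433 rises and 235 falls, and less than 25% by 226 rises and 312 falls. Because 12, 24 and 48 h are evenly spaced on a log scale of time, a steady change per doubling of time would reach 50%. A steady change per hour would reach less than 50% by 24 h, since the step from 24 to 48 h is the longer in hours. Which scale of time applies was not tested. The same 12 and 48 h libraries chose these transcripts and set the ends of the path, and the difference between rises and falls was not tested.

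The path itself was tested by setting the 24 h level against the midpoint of 12 and 48 h in the same fit. That midpoint stands for a steady change per doubling of time, and a steady change per hour would lie off it. No transcript departed from the midpoint at an adjusted p under 0.05 (0% of 15524, edgeR). Before adjustment 556 of the 15524 passed 0.05, a smaller share than that threshold lets through when nothing departs. DESeq2 called 32 of 15524, with 27 of them above the midpoint. In a fit of the 12, 24 and 48 h libraries alone, 12 of 14917 were called, all above it. ENSMODT00000014407 lay 1.51 above the midpoint on the log2 scale (SE 0.532, unadjusted p = 0.0144, adjusted p = 1). Its change was -1.47 from 12 to 24 h (adjusted p = 0.493) and -4.49 from 24 to 48 h (adjusted p = 0.0116). For ENSMODT00000024329 the 24 to 48 h change was -3.21 (adjusted p = 0.0893) and the 12 to 24 h change -4.84 (adjusted p = 0.0435, edgeR).

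A few features carried names. Most are named after genes that are imprinted in placental mammals, where the copy from 1 parent is silenced, and marsupials share imprinting for part of them. After removal of 4 upper-case copies, 10 were left, 9 of them with enough counts to test. The Ins2_trans feature, named for a gene of insulin, had no count in any of the 9 libraries, which allows up to 3 counts, or 0.0169 to 0.0291 CPM.

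Phlda2_trans was the called feature of the 9. Phlda2 restrains growth of the placenta in mice. Its level was 13.0, 5.46 and 19.9 CPM at 12 h (A0036, A0039, A3538), 4.73, 1.49 and 4.53 CPM at 24 h and 2.99, 0.271 and 2.12 CPM at 48 h. All 3 identifiers were lower at each later time, and the 12 and 48 h libraries did not overlap. The log2 change was -2.89 (SE 0.803, adjusted p = 0.0265 in edgeR's test), with a 95% interval of -4.63 to -1.15. It was no longer called when A0036 or A3538 lacked its 12 h library (adjusted p = 0.0747 and 0.0955), when A0039 or A3538 lacked its 48 h library (0.076 and 0.0641), or without A3538 (0.1095), while the fitted change stayed between -3.10 and -2.34. Leaving out the 48 h sample of A0036 gave -3.52, and scaling by the library total gave -1.83.

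H19_trans, named for a non-coding RNA made next to Igf2, was lower at 48 h in all identifiers on the TMM scale, though not in A3538 as a share of the library total, and did not pass. Its 12 h levels were 0.750, 0.678 and 0.650 CPM, from 104 to 120 counts, and its 48 h levels 0.253, 0.329 and 0.486 CPM, from 34 to 62 counts. The groups did not overlap (log2 change -1.02, SE 0.445, unadjusted p = 0.0396, adjusted p = 0.131 in edgeR's test), and with scaling by the library total the change was -0.24. Igf2_trans, named for a fetal growth factor, had 20, 0 and 14 counts at 12 h and 4, 0 and 4 at 48 h. Its change of -1.61 had a 95% interval of -4.77 to 1.54, too wide to show a direction.

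Cdkn1c_trans and Peg10_trans were also rare. Cdkn1c encodes an inhibitor of cyclin-dependent kinases, and its feature was at 0.608, 0.452 and 0.425 CPM at 12 h and 0.0446, 0.562 and 0.110 CPM at 48 h. A0036 and A3538 were lower and A0039 was higher (log2 change -1.61, SE 1.20, adjusted p = 0.386). Peg10 derives from a retrotransposon, and its feature was at 0.0646, 0.0791 and 0.125 CPM at 12 h and 0.208, 0.116 and 0.313 CPM at 48 h, higher in 3 of 3 identifiers without passing (1.24, SE 1.04, adjusted p = 0.444).

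Rsx, the RNA that coats the silenced X chromosome in female marsupials, was rare throughout, with its highest level at 0.266 CPM in A3538 at 48 h. It had 15, 2 and 6 counts at 12 h, 10, 4 and 0 at 24 h and 12, 8 and 34 at 48 h. The change of 1.72 on the log2 scale had a 95% interval of -1.34 to 4.79 (adjusted p = 0.432, edgeR). It was 0.236 when A3538 lacked its 48 h library and 0.578 without A3538.

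The last 3 features, Tnsf1, Fsnt1 and Fsnt3, showed no call. Tnsf1 was at 1.80, 0.955 and 3.52 CPM at 12 h and 1.67, 1.77 and 1.15 CPM at 48 h, so A0039 was higher at 48 h and the other identifiers lower, and the fitted change was -0.32 (95% interval -1.22 to 0.57). Fsnt1 was at 1.14, 0.537 and 2.04 CPM and then 1.37, 1.33 and 0.909 CPM, with a change of 0.012 (-0.93 to 0.95). Fsnt3 was at 2.92, 1.64 and 2.48 CPM and then 1.69, 1.22 and 1.79 CPM, lower in 3 of 3 identifiers, with a change of -0.58 (-1.41 to 0.26). The direction of Tnsf1 and Fsnt3 turned with scaling by the library total (0.57 and 0.31).

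**Figure D5:**
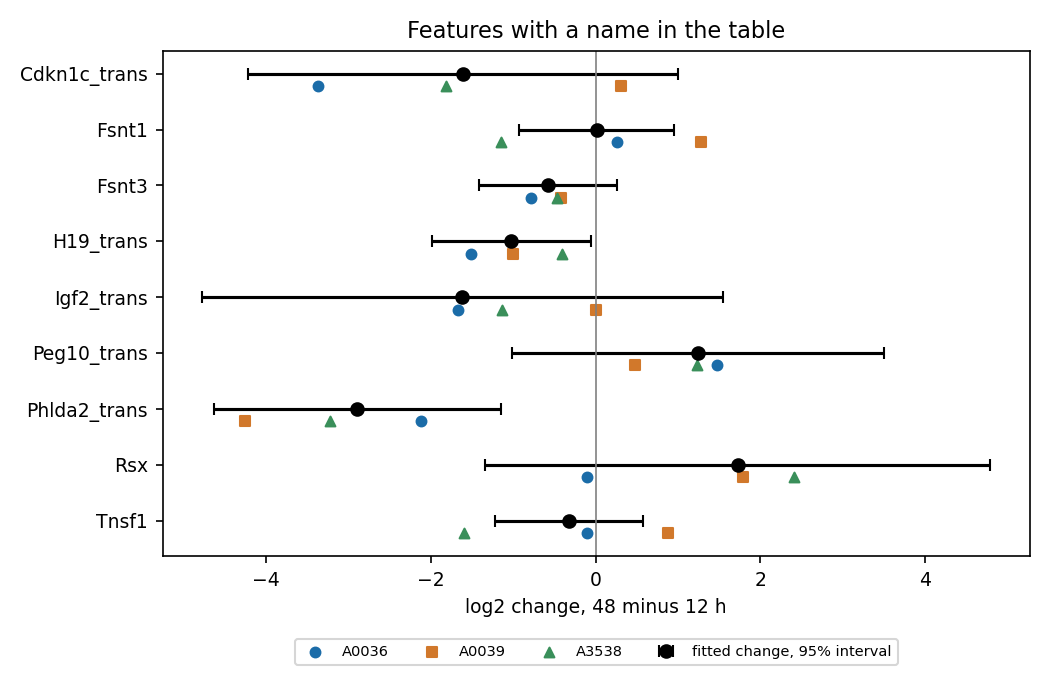
The fitted log2 change from 12 to 48 h (horizontal axis, black points with 95% intervals) of the 9 tested features with a name, and below each the change in each identifier. The interval of Phlda2_trans runs from -4.63 to -1.15, and those of the other features except H19_trans include 0.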

How the data were processed

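Per the labels' protocols, directional libraries were made from poly(A) RNA of cultured whole blood. The authors deposited raw, unscaled read counts per transcript. The submitters' processing notes name R 4.1.2, edgeR, bedtools 2.30.0, TopHat2 2.1.1, Bowtie2, Trimmomatic 0.36 and FastQC 11.5, with no roles. Strand setting, build and annotation were not given in the sources used here. Overlapping, antisense and near-identical transcripts are therefore uncertain. Upper-case copies of 4 features with identical counts were removed, leaving 22059. Among values of 1 to 12 counts, 67.6% to 73.2% per library were even. The cause of this uneven split was not tested. Floors, and the fold bound built on them, take each count as a separate event and cover counting error only.

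All 15 untreated time course libraries were fitted with edgeR 4.0.16 (limma 3.58.1, R 4.3.3), using TMM factors, filterByExpr on time (minimum count 10), time as a factor and the identifier as a block. This left 15524 transcripts and 8 residual degrees of freedom. The 0, 24 and 72 h libraries thus also bore on the filter, the spread and the fitted changes. Log2 levels per library used a prior count of 2. The libraries were paired by identifier. Deviations from the time means correlated between 12 and 48 h at 0.210, 0.246 and 0.198 within A0036, A0039 and A3538. Such values between identifiers were not set beside them. By rank correlation of levels, each 12 h library was closest to the 48 h library of A3538 (0.965, 0.96 and 0.964 in the same order). No 2 of the libraries of 12 or of 48 h were alike within counting noise. DESeq2 1.42.0, other scalings, filters, sets of libraries, thinning and leaving out each library were tried. Scaling by the total, halved counts and leaving out A3538 were added after seeing the data. Named were all features with a name and, with no table that pairs identifiers with genes, 2 transcripts that rose and 2 that fell: the largest change and the highest level among called transcripts that moved the same way in all identifiers, did not overlap and reached 5 CPM. The comparison and the rules were chosen with earlier results of these data known. The treatment experiment was not used here.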

Additional observations from a re-analysis of the deposited data

How the results depend on the processing

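Over 21 alternatives the count of 2864 calls from 12 to 48 h ranged from 1313 to 4741, and no transcript was called in the opposite direction under any. Such a reversal takes a call in both fits, so its absence says nothing of calls that were lost. It was 4741 in a fit of the 12, 24 and 48 h libraries alone, 4348 with scaling by the library total, 1561 without A3538, and 1313 to 2448 when single libraries were left out. Without the replicate block it was 2189, of which 2157 were among the 2864. A fit of the 12 and 48 h libraries alone gave 2991 calls, of which 2352 were among the 2864, and DESeq2 gave 3900. The cause of these shifts was not tested. Departures of the 24 h level from the midpoint, 0 as reported, numbered 3 with RLE factors, 32 in DESeq2, 7 with no filter on low counts, 4 with a minimum count of 100, 12 in the fit of 3 times, 2 without the 10 most abundant transcripts, 4 with thinned libraries, 2 with scaling by the total, 4 with halved counts, and 0 to 4 when single libraries were left out; it was not computed from the 12 and 48 h libraries alone or without A3538. Without thinning, the gain in detected features was 175.3 in place of 731. Among features that were not called, Fsnt1 turned to -0.0415 without the block and ranged from -0.414 to 0.644 when single libraries were left out, Tnsf1 ranged from -0.720 to 0.226 and was 0.574 with scaling by the total and 0.372 without A3538, and Fsnt3 was 0.305 with scaling by the total. Depth limits what can be said of Igf2_trans, Peg10_trans and Rsx, which had 0 to 42 counts per library from 12 to 48 h.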

Other observations

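The identifiers moved in opposite directions for a small set of transcripts. At least 4-fold higher in 1 identifier and at least 4-fold lower in another from 12 to 48 h were 50 of the 15524 tested. None was called, but transcripts chosen for opposite directions can hardly pass a paired test, so this is no finding about them. Most were rare, and 4 averaged at least 5 CPM at 12 or 48 h. They are described here after their values were seen and without identifiers. The first went from 8.56 to 71.4 CPM in A0039 and from 165 to 17.8 CPM in A3538. The second went from 19.0 to 319 CPM in A3538 and from 12.5 to 2.00 CPM in A0039. The third went from 31.2 to 147 CPM in A3538, from 78.0 to 12.2 CPM in A0036 and from 126 to 3.95 CPM in A0039. The last went from 14.4 to 1.37 CPM in A3538 and from 0.05 to 0.23 CPM in A0039, where it was rare at both times.

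By the median transcript, the libraries of a time lay slightly further apart later, a difference that was not tested. Depth also fell with time, and its part in this was not tested. The SD between the 3 libraries of a time had a median over transcripts of 0.267 on the log2 scale at 12 h, 0.271 at 24 h and 0.302 at 48 h. For called rises it went from 0.276 at 12 h to 0.441 at 48 h. It went from 0.359 to 0.406 for called falls and from 0.257 to 0.278 for transcripts that were not called.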
